A study of Mus musculus with 12 samples.

Results

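The 9 genes described here are spliced non-coding genes that carry small nucleolar RNAs (snoRNAs) in their introns, namely *Gas5*, *Snhg1*, *Snhg3*, *Snhg4*, *Snhg5*, *Snhg6*, *Snhg8*, *Snhg9* and *Snhg12*. They were taken by name as hosts that nonsense-mediated decay (NMD) is known to degrade, and were found in the count files by mapping Ensembl gene identifiers to mouse symbols of GENCODE M21. Of the 46517 genes in the files, 7 were members of this list and 6 of them were expressed highly enough to be tested. *Snhg9* had between 1 and 13 reads in each sample and was left out by the filter on low counts. *Snhg1* is annotated under an identifier that the files do not list, and no identifier matched *Snhg4*, so these genes were not analysed here.

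The study sequenced polyadenylated RNA of 4 groups with 3 replicates each, 12 samples in all, to learn how loss of the *Meteor* enhancer changes the transcriptome of embryonic stem cells (ESCs). *Meteor* is an enhancer upstream of *Eomes* that is active in ESCs. All cells came from an ESC line with a C57BL/6 background that carries an EGFP reporter in *Eomes*. The groups were wild type (WT) and *Meteor* KO cells at day 0, when they were undifferentiated ESCs kept on mouse embryonic fibroblast feeders, and at day 3 of cardiac differentiation as hanging-drop embryoid bodies. KO lines were made with CRISPR-Cas9 nickase and puromycin selection from picked clones. How many clones these libraries came from, and whether the replicates were separate cultures, is not given in the sources used here, so p-values measure the spread between these samples.

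snoRNAs guide the chemical modification and cleavage of ribosomal RNA, and most mammalian snoRNAs are cut out of introns of host genes. The spliced exons of such non-coding hosts hold only short reading frames, so a ribosome that translates them stops early, upstream of exon junctions. NMD recognises a stop codon followed by a junction that still carries the exon junction complex, in a pathway that turns on UPF1, UPF2 and UPF3B, and it degrades the RNA. The files hold read counts, so RNA levels were measured and decay itself was not.

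The reads counted on genes numbered 17455927 to 23910943 per sample. *Platr11*, an annotated lincRNA at the deleted enhancer, lay between 1.57 and 6.12 CPM (counts per 1000000 reads on genes after TMM scaling) in the WT samples of day 0 and between 0 and 0.0551 in KO. *Upf3b*, which encodes the NMD factor that links UPF2 to the exon junction complex, lay between 45.5 and 55.9 CPM in WT and between 0.224 and 0.661 in KO at day 0. At day 3 it lay between 48.7 and 55.0 CPM in WT and between 0 and 0.0416 in KO, where no library held more than 1 of its reads. The labels name no difference between the genotypes other than the *Meteor* deletion, and the deletion and the low *Upf3b* level cannot be told apart in any comparison of KO with WT.

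The short first reading frames of these RNAs can be read in their sequences. The lines below show, for the 6 tested genes, the GENCODE M21 transcript (GRCm38) from its first base to the end of the reading frame that opens at its first ATG, 5′ to 3′. The capitals mark that ATG and its stop codon.
Gas5 (Gas5-224, chr1:161035163-161038537, plus strand): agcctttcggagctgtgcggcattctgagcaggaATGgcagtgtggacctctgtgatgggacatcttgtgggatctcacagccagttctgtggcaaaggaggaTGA
Snhg8 (Snhg8-203, chr3:123507557-123508333, minus strand): tttggctgcgatccgcctacgagtATGTAG
Snhg5 (Snhg5-201, chr9:88521052-88522890, minus strand): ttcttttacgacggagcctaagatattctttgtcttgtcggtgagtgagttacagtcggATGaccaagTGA
Snhg6 (Snhg6-203, chr1:9941959-9944118, minus strand): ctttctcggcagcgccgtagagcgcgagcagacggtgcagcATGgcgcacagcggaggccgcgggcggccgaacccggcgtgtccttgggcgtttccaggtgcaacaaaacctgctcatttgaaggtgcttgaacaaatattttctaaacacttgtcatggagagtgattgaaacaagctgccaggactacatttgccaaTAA
Snhg12 (Snhg12-205, chr4:132308678-132311024, plus strand): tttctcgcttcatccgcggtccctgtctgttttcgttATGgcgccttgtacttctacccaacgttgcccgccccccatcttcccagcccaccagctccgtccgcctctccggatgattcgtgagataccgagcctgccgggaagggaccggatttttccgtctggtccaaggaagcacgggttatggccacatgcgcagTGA
Snhg3 (Snhg3-204, chr4:132351933-132353686, minus strand): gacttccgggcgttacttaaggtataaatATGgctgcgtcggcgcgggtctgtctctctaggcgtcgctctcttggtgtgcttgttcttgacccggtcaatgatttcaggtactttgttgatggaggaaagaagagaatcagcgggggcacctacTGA

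In *Snhg8*, host of *Snora24*, the stop codon followed the first ATG directly, so the frame had 1 codon. The frame of *Snhg5*, host of *Snord50a* and *Snord50b*, had 3 codons and that of *Gas5*, a growth arrest-associated gene with 10 annotated snoRNA genes, had 23. *Snhg3*, *Snhg6* and *Snhg12* had frames of 42, 53 and 54 codons. An exon junction more than 50 bases past the stop was present 7 times in *Gas5*, 4 times in *Snhg5*, 2 times in *Snhg12* and 1 time each in *Snhg6* and *Snhg8*. The transcript of *Snhg3* used here had none, since its last junction lay 32 bases before the end of the stop codon. Of the members that were not tested, *Snhg1* had 7 such junctions and *Snhg9* had 0. Of 4008 other multi-exon noncoding genes of GENCODE M21 with a transcript of support level 1, 2890 (72.1%) had such a junction by the same measure. The first ATG need not be the one that ribosomes use.

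**Figure D1:**
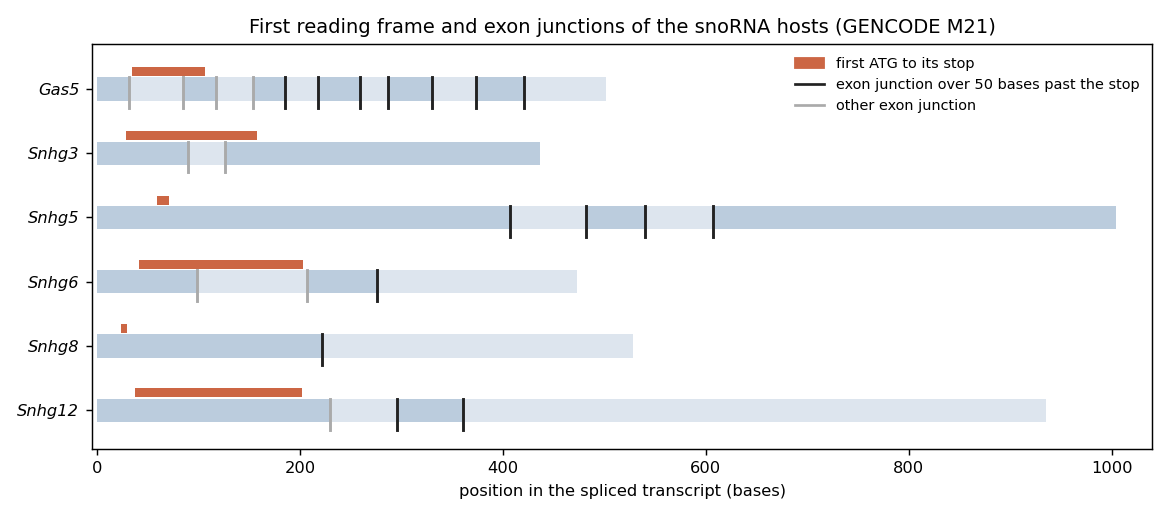
Spliced transcripts of the 6 tested hosts to scale, with position in bases on the x axis and 1 gene a row. Shades alternate between exons, the orange bar spans the first ATG to its stop, and vertical lines mark exon junctions, dark where they lie more than 50 bases past the stop. *Gas5* has 7 dark junctions and *Snhg3* has none.

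At day 0, *Gas5* and *Snhg8* were higher in KO than in WT ESCs and none of the 6 tested hosts was lower. *Gas5* rose 1.71-fold and *Snhg8* rose 1.77-fold. By edgeR's quasi-likelihood test with an adjusted p-value below 0.05, 9.56% of the 15673 tested genes were called higher and 10.9% lower in this comparison, against 2 and 0 of the 6 hosts. The median log2 fold change of the 6 was 0.29, and that of all tested genes was -0.0094. No host had an unadjusted p-value below 0.05 for a decrease, and limma-voom and DESeq2 also called 0 of them lower.

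*Gas5* was the most abundant of these genes. The 3 WT replicates of day 0 had 419, 355 and 295 CPM, and those of KO had 742, 622 and 471 CPM. Every KO sample lay above every WT sample, and the groups did not overlap. The log2 fold change was 0.77 (SE 0.13, adjusted p = 0.00298), and the log2 ratio within the same-numbered pairs ran from 0.68 to 0.83. Without the replicate number as a block the adjusted p-value was 0.0589, so the call of *Gas5* at day 0 depended on the pairing.

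*Snhg8* showed the same separation at lower counts. Its WT replicates had 31.3, 20.5 and 23.1 CPM and its KO replicates 50.9, 43.8 and 37.0 CPM. The lowest KO sample exceeded the highest WT sample. Its log2 fold change was 0.82 (SE 0.13, adjusted p = 0.00202) and remained past the threshold in every alternative fit that was run, with adjusted p-values of at most 0.032. Of all tested genes 16.8% had 3 KO samples above 3 WT samples at day 0, against 2 of the 6 hosts.

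The other 4 hosts did not pass the test at day 0. *Snhg6*, host of *Snord87*, had 47.3, 37.6 and 35.5 CPM in WT and 59.5, 53.7 and 44.3 CPM in KO. Each pair was higher in KO, but the groups overlapped, and the log2 fold change of 0.39 (SE 0.14) had an adjusted p-value of 0.0678. Same-numbered WT and KO samples deviated together within a day, and when the block was fitted within each day the adjusted p-value of *Snhg6* was 0.00495, in a fit that called 16.8% of all tested genes higher and 18% lower. DESeq2 with the block over both days also called *Snhg6* (0.40, adjusted p = 0.039), as did edgeR with only the 6 samples of day 0 (adjusted p = 0.00604). Over the edgeR fits that left out 1 sample its adjusted p-value ran from 0.0329 to 0.28.

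*Snhg12*, host of *Snora16a*, *Snora44*, *Snora61* and *Snord99*, had 61.0, 43.7 and 46.5 CPM in WT and 76.5, 47.7 and 50.4 CPM in KO, and a log2 fold change of 0.19 (SE 0.084, adjusted p = 0.142). *Snhg3*, host of *Snora73a* and *Snora73b*, which act in the cleavage of ribosomal RNA precursors, had 46.9, 53.7 and 45.2 CPM in WT and 50.5, 53.9 and 58.2 CPM in KO, a log2 fold change of 0.16 (SE 0.18, adjusted p = 0.582). For both genes the groups overlapped, although all 3 pairs were higher in KO.

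*Snhg5* was the only tested host with a log2 fold change below 0 at day 0. It had 77.0, 109 and 93.3 CPM in WT and 79.5, 103 and 93.8 CPM in KO, with 2 of 3 pairs higher in KO. The difference of -0.016 (SE 0.26, adjusted p = 0.976) was far smaller than the spread between replicates. Its sign changed when single samples were left out, so no direction can be read from it.

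**Figure D2:**
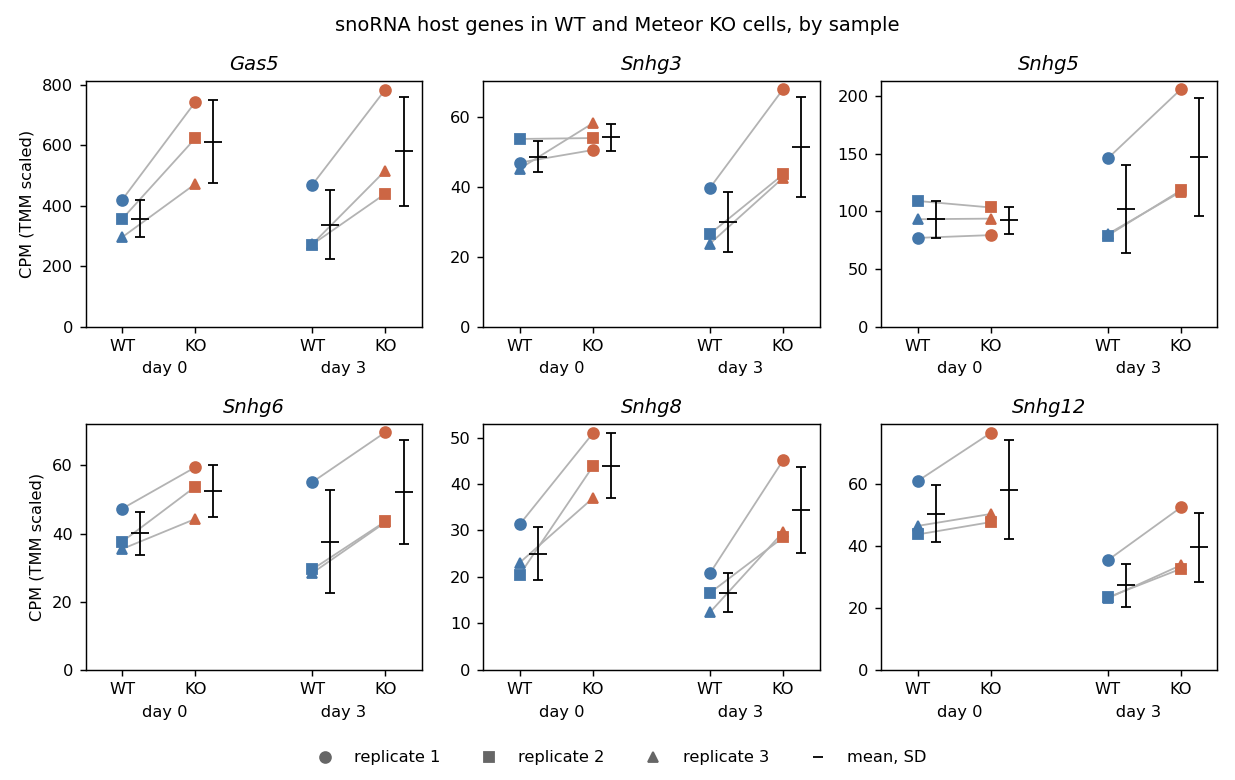
TMM-scaled CPM of the 6 tested hosts in each of the 12 samples, on linear axes that start at 0. Grey lines join the WT and KO samples that share a day and a replicate number, and black bars give the mean and SD of 3 replicates. At day 3 the replicate 1 sample is the highest of its group for every gene shown, and all day 3 lines rise from WT to KO.

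At day 3, 5 of the 6 tested hosts were higher in KO than in WT and none was lower. *Snhg8* had the largest increase, 2.07-fold, followed by *Gas5* (1.73-fold), *Snhg3* (1.71-fold), *Snhg12* (1.45-fold) and *Snhg6* (1.41-fold). Of all tested genes 14.3% were called higher and 16.7% lower at this day. The median log2 fold change was 0.66 over the 6 hosts and -0.002 over all tested genes. For a decrease, 0 hosts had an unadjusted p-value below 0.05 in edgeR, and limma-voom and DESeq2 called 0.

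For *Snhg8*, the day 3 values were 20.8, 16.6 and 12.4 CPM in WT and 45.1, 28.5 and 29.6 CPM in KO. No KO sample was as low as any WT sample. This gave 1.05 on the log2 scale (SE 0.13, adjusted p = 0.000395), and it stayed past the threshold in every alternative fit, with adjusted p-values of at most 0.0067.

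For *Gas5*, the WT replicates had 468, 271 and 272 CPM and the KO replicates had 783, 439 and 516 CPM. WT replicate 1 lay above KO replicate 2, so the groups overlapped, yet within each pair the KO sample was higher, by a log2 ratio between 0.70 and 0.92. Together they gave a log2 fold change of 0.79 (SE 0.13, adjusted p = 0.00161), close to the 0.77 of day 0.

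*Snhg3* separated the genotypes at day 3, which it did not at day 0. It had 39.7, 26.5 and 23.7 CPM in WT and 67.9, 43.5 and 42.5 CPM in KO, with no overlap. The log2 fold change was 0.78 (SE 0.19, adjusted p = 0.0116). The call rested in part on 1 library, since without KO day 3 replicate 1 the log2 fold change was 0.59 with an adjusted p-value of 0.0594. At day 3, 20.8% of all tested genes had every KO sample above every WT sample, against 2 of the 6 hosts, *Snhg3* and *Snhg8*.

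In *Snhg12* the values were 35.4, 23.4 and 23.1 CPM in WT and 52.5, 32.6 and 33.8 CPM in KO. The 3 pairs gave nearly equal log2 ratios, from 0.48 to 0.57, while replicate 1 of WT exceeded replicates 2 and 3 of KO. The log2 fold change was 0.53 (SE 0.085, adjusted p = 0.00148), and without the block the adjusted p-value was 0.127.

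*Snhg6* had 55.1, 29.5 and 28.4 CPM in WT and 69.7, 43.6 and 43.3 CPM in KO at day 3. Again the groups overlapped through WT replicate 1 and each pair was higher in KO. The log2 fold change of 0.49 (SE 0.14, adjusted p = 0.0209) was the least stable of the 5 calls. It had an adjusted p-value of 0.203 without the block, and between 0.0595 and 0.086 when WT day 3 replicate 2, WT day 3 replicate 3, KO day 3 replicate 1 or KO day 3 replicate 3 was left out.

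*Snhg5* had 146, 79.1 and 80.3 CPM in WT and 206, 118 and 117 CPM in KO. The 3 pairs agreed closely, with log2 ratios from 0.50 to 0.58, whereas the replicates of 1 group differed by more than the genotypes did. The log2 fold change was 0.53 (SE 0.26, adjusted p = 0.145) and *Snhg5* was not called. With the block fitted within each day it was 0.54 with an adjusted p-value of 8.75e-05, and 6 of 6 hosts were then called higher, where 22.5% of all tested genes were called higher and 24.4% lower. Without WT day 3 replicate 1 the adjusted p-value was 0.0417.

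**Figure D3:**
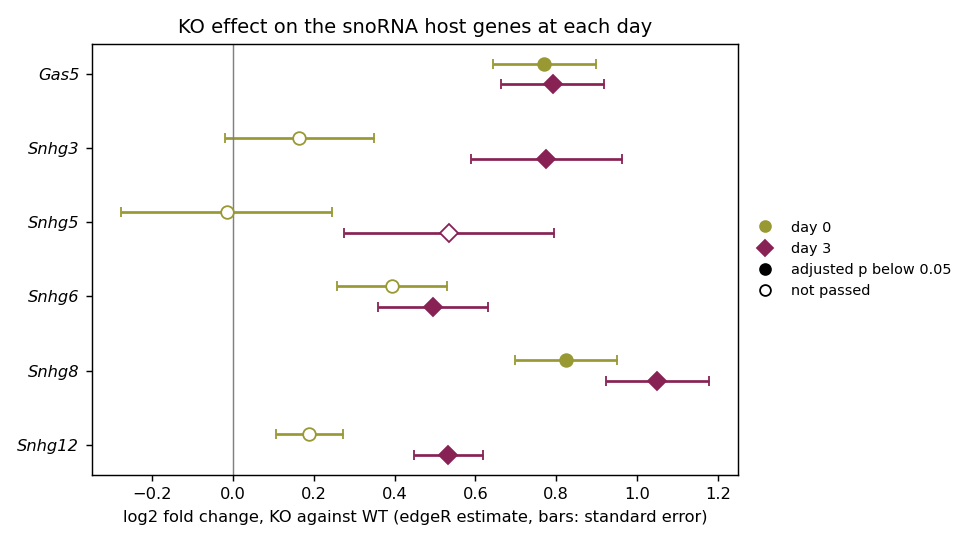
Log2 fold change of KO against WT for the 6 tested hosts at day 0 (circles) and day 3 (diamonds), as estimated by edgeR, with bars of 1 standard error. Filled symbols passed an adjusted p-value of 0.05. *Gas5* and *Snhg8* are filled at both days, and *Snhg5* is open at both.

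A feature of the day 3 libraries bears on all these values. Replicate 1 was between 1.44 and 1.9 times the mean of replicates 2 and 3 for each of the 6 hosts, in WT and in KO alike. At day 0 the same ratio ran from 0.761 for *Snhg5* in WT to 1.56 for *Snhg12* in KO, so there the hosts did not move together. The spread within a group was thus shared by the genotypes at day 3, and the comparisons were sharper within pairs than between groups.

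Summed over the 6 hosts, WT had 682, 620 and 539 CPM and KO had 1060, 924 and 755 CPM at day 0. The sums at day 3 were 765, 446 and 440 CPM in WT and 1220, 706 and 782 CPM in KO. *Gas5* made up most of each sum. The sum of WT replicate 1 at day 3 fell between those of KO replicates 2 and 3, and the day 0 sums did not overlap.

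The size of the KO effect was not called different between the days for any host by edgeR's interaction term. The difference, day 3 minus day 0 on the log2 scale, was 0.021 (SE 0.18, adjusted p = 0.958) for *Gas5*, 0.10 (SE 0.19, adjusted p = 0.772) for *Snhg6* and 0.23 (SE 0.18, adjusted p = 0.431) for *Snhg8*. It was 0.61 (SE 0.26, adjusted p = 0.144) for *Snhg3*, 0.55 (SE 0.37, adjusted p = 0.345) for *Snhg5* and 0.34 (SE 0.12, adjusted p = 0.0775) for *Snhg12*. Each of the 6 estimates was above 0, but those of *Gas5* and *Snhg6* changed sign when single samples were left out.

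Among all tested genes, 8.21% were called for a larger and 7.34% for a smaller difference at day 3, against 0 and 0 of the hosts. At an unadjusted p-value below 0.05, 2 hosts had a larger difference in edgeR, and after adjustment limma-voom called 0 and DESeq2 called 1. With the block fitted within each day, *Snhg3* (0.62, adjusted p = 0.00401), *Snhg5* (0.55, adjusted p = 0.00105) and *Snhg12* (0.34, adjusted p = 0.0312) were called, 3 of the 6 hosts. That fit called 16.2% of all tested genes for a larger and 15.0% for a smaller difference. The calls of *Snhg3* and *Snhg5* thus depended on how the replicate numbers entered the fit. With the block over both days, *Snhg12* was also called by DESeq2 (0.36, adjusted p = 0.0423) and by edgeR without WT day 0 replicate 1 (0.41, adjusted p = 0.0452).

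Between day 0 and day 3, 3 of the hosts decreased in WT cells. *Snhg12* fell by 0.90 on the log2 scale (SE 0.085, adjusted p = 2.44e-05), *Snhg3* fell by 0.73 (SE 0.19, adjusted p = 0.00792) and *Snhg8* fell by 0.60 (SE 0.13, adjusted p = 0.00293). The replicate numbers did not pair samples across days, and without the block the call of *Snhg8* was lost (-0.59, adjusted p = 0.0516). Of all tested genes 30.7% were called higher and 25.5% lower in this comparison, against 0 and 3 of the 6 hosts. No host had an unadjusted p-value below 0.05 for an increase, and limma-voom and DESeq2 called 0. *Gas5* (-0.12, SE 0.13, adjusted p = 0.463), *Snhg6* (-0.14, SE 0.14, adjusted p = 0.404) and *Snhg5* (0.076, SE 0.26, adjusted p = 0.821) did not pass the test.

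In KO cells, *Snhg12* fell by 0.56 (SE 0.084, adjusted p = 0.00032) and *Snhg8* fell by 0.37 (SE 0.12, adjusted p = 0.0274) between the days. Without the block the adjusted p-values were 0.0741 and 0.22. *Snhg8* also lost its call when KO day 0 replicate 2, KO day 0 replicate 3, KO day 3 replicate 2 or KO day 3 replicate 3 was left out. *Snhg3*, at -0.12 (SE 0.185, adjusted p = 0.619), did not pass. Called genes made up 29.4% of all tested genes for an increase and 27.2% for a decrease, against 0 and 2 of the hosts.

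*Snhg5* had the largest increase from day 0 to day 3 in KO, at 0.63 (SE 0.26, adjusted p = 0.0642). It was the 1 host with an unadjusted p-value below 0.05 for an increase there. DESeq2 called it (adjusted p = 0.0415), as did edgeR without the block (0.67, adjusted p = 0.0481), and limma-voom called 0 hosts higher. The comparisons between days and those between genotypes share samples, so they are not independent of each other.

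Markers of cell types also differed between WT and KO at day 3. Markers of primitive streak and mesendoderm (*T*, *Eomes*, *Mixl1*, *Gsc*, *Foxa2* and *Mesp1*) summed to between 665 and 1500 CPM in WT and between 74.7 and 149 CPM in KO, and 6 of 6 were lower in KO. The 6 pluripotency markers summed to between 596 and 1120 CPM in WT and between 1100 and 1190 CPM in KO, with 3 called higher in KO and 0 lower. They did not all move the same way: 4 of the 6 had a log2 fold change above 0. *Nanog* (-0.64, SE 0.28, adjusted p = 0.107) and *Klf4* (-0.58, SE 0.31, adjusted p = 0.182) lay below 0 and did not pass. Neuroectoderm markers summed to between 263 and 337 CPM in WT and between 312 and 354 CPM in KO, with 3 of 5 called higher and 1 lower. Of 7 tested fibroblast markers, which the feeder cells express, *Dcn* (2.51), *Col3a1* (1.47) and *Thy1* (0.77) were higher and *Pdgfrb* (-1.04) was lower on the log2 scale, while all 8 listed summed to 44.0 to 67.3 CPM in WT and 39.3 to 80.7 CPM in KO.

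At day 0 the sums were 2620 to 3110 CPM in WT and 3470 to 3850 CPM in KO for pluripotency, with 1 of 6 higher. The 8 fibroblast markers summed to 80.4 to 242 CPM in WT and 117 to 317 CPM in KO, and 0 of the 7 tested passed, with log2 fold changes between 0.19 and 0.92. At an unadjusted p-value below 0.05 there were 2, limma-voom and DESeq2 called 0, and the block within each day called 2. The mesendoderm markers summed to 40.3 to 147 CPM in WT and 51.8 to 67.2 CPM in KO, and of the 6 only *T* was lower (-5.49, SE 1.43, adjusted p = 0.0234). The value of *T* rested in part on 1 library: its WT samples had 4.64, 6.42 and 77.4 CPM and its KO samples 0.34, 0.33 and 0.92 CPM. Its call was lost in 4 of 12 fits that left out 1 sample, among them the fit without WT day 0 replicate 3. Over these fits its log2 fold change ran from -6.41 to -3.13. The neuroectoderm markers moved in both directions. *Nes* (from a mean of 112 to 36.7 CPM), *Otx2* and *Pax6* were lower in KO, while *Sox1* (1.26, SE 0.54, adjusted p = 0.127) and *Neurog3* (1.87, SE 0.65, adjusted p = 0.0677) did not pass but were called higher with the block within each day (adjusted p = 0.00573 and 0.0218). Their sum was 134 to 228 CPM in WT and 45.3 to 62.9 CPM in KO. No marker was without reads in all samples of a group. The part of these cell types in the values of the snoRNA hosts was not tested, and in bulk samples fewer cells of a type and less RNA per cell cannot be told apart.

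Compared per length, as CPM per kb of the union of annotated exons, *Gas5* had the highest level in every group, at 94.8 ± 16.4 in WT and 163 ± 36.1 in KO at day 0 (SD, n = 3). *Snhg5* (53.8 ± 9.27) and *Snhg3* (49.3 ± 4.54) followed in WT at day 0 and lay within each other's spread. *Snhg6* (35.0 ± 5.5) and *Snhg8* (29.3 ± 6.63) likewise overlapped, and *Snhg9* was lowest with 1.65 ± 1.45.

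In KO at day 0, *Snhg3* (55.0 ± 3.9), *Snhg5* (53.3 ± 6.98), *Snhg8* (51.5 ± 8.18) and *Snhg6* (45.8 ± 6.69) could not be ordered beyond their spread, and *Snhg12* had 24.2 ± 6.63. At day 3, *Snhg3* was at 30.4 ± 8.65 per kb in WT and 52.0 ± 14.6 in KO, and *Snhg8* was at 19.4 ± 4.93 and 40.3 ± 10.9. These lengths hold retained introns: 20 of the 25 annotated *Gas5* transcripts are of that class. With the length of the spliced transcript alone, *Gas5* rose to 710 CPM per kb in WT at day 0, and *Snhg3* (111) came before *Snhg5* (92.8), *Snhg6* (84.8), *Snhg12* (53.9) and *Snhg8* (47.3).

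*Snhg9*, host of *Snora78*, stayed near the detection limit. Its reads per sample were 5, 1 and 11 in WT and 13, 11 and 4 in KO at day 0, and 9, 4 and 6 in WT and 4, 5 and 3 in KO at day 3. The groups overlapped at both days. A fit without the filter on low counts gave log2 fold changes of 0.72 (SE 0.67, adjusted p = 0.699) at day 0 and -0.57 (SE 0.73, adjusted p = 0.731) at day 3, so a difference was not detectable at this depth.

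The intronic products were counted for only some hosts. All 10 annotated snoRNA genes inside *Gas5*, both inside *Snhg5*, 1 inside *Snhg8* and all 5 inside *Snhg12* were listed at 0 reads in each sample. As background, mature snoRNAs carry no poly(A) tail, and reads on exons of more than 1 gene are ambiguous and were left out. Annotated transcripts with a retained intron numbered 20 for *Gas5*, 3 for *Snhg5*, 1 for *Snhg8* and 0 for *Snhg12*. In *Snhg12* the annotated exons together cover the whole gene. There were 0 for *Snhg3*, *Snhg6* and *Snhg9*, whose snoRNA genes had reads. Whether overlap with annotated host exons gave the zeros was not tested, so they are no measure of these snoRNAs. The 8 snoRNA genes inside *Snhg1* did have reads, and their summed level was 79.7, 99.4 and 62.7 CPM in WT and 97.6, 131 and 62.0 CPM in KO at day 0. At day 3 it was 97.5, 37.0 and 36.5 CPM in WT and 139, 48.3 and 49.1 CPM in KO.

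As in the hosts, replicate 1 of day 3 was the highest in both genotypes, and the groups overlapped. The log2 fold changes of the 8 genes ran from 0.053 to 0.41 at day 0 and from 0.37 to 0.62 at day 3, all above 0, and edgeR called 0 of 8 at both days. None had an unadjusted p-value below 0.05, limma-voom and DESeq2 called 0, and the block within each day called 1 at day 0 and 6 at day 3. Whether these reads came from snoRNAs or from the *Snhg1* transcript, for which the files have no entry, was not tested.

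Of the 4 other counted snoRNA genes, *Snora73b* of *Snhg3* had the most reads, up to 351 in a sample. It changed by 0.016 (SE 0.31, adjusted p = 0.981) at day 0 and 0.53 (SE 0.31, adjusted p = 0.227) at day 3, and in WT it fell by 0.86 (SE 0.32, adjusted p = 0.0405) between the days. *Snora78* of *Snhg9* had log2 fold changes of 0.25 (SE 0.39, adjusted p = 0.7) and 1.20 (SE 0.45, adjusted p = 0.0675), from at most 25 reads a sample. *Snora73a* and *Snord87* were not called at either day. The block within each day called *Snora73b* (adjusted p = 0.00637) and *Snora78* (adjusted p = 0.0477) higher at day 3, and *Snora73b* for a larger KO effect at day 3 (adjusted p = 0.0498).

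Neighbouring genes were read for comparison. *Rcc1*, which encodes the exchange factor of the GTPase Ran, starts 81 bases from *Snhg3* on the same strand and shares 135 exonic bases with it, so reads there cannot be assigned to 1 gene. *Rcc1* did not pass the test, at -0.072 (SE 0.14, adjusted p = 0.761) at day 0 and 0.32 (SE 0.14, adjusted p = 0.11) at day 3, although the block within each day called it at day 3 (adjusted p = 0.00997). *Zbtb37* starts 427 bases from *Gas5* on the opposite strand and was higher in KO at day 0 (0.37, SE 0.11, adjusted p = 0.0345; 0.226 without the block) and at 0.15 (SE 0.11, adjusted p = 0.308) at day 3.

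*Slc3a2*, a subunit of amino acid transporters that starts 106 bases from *Snhg1*, was not called at -0.003 (SE 0.11, adjusted p = 0.99) and 0.16 (SE 0.11, adjusted p = 0.266). The nearest protein-coding starts to *Snhg5*, *Snhg6* and *Snhg8* were more distant, those of *Zfp949* at 25091, *Tcf24* at 23814 and *Prss12* at 61491 bases. *Zfp949* was not called, at -0.041 (SE 0.13, adjusted p = 0.865) at day 0 and -0.28 (SE 0.14, adjusted p = 0.145) at day 3. *Tcf24* (-0.97, SE 0.29, adjusted p = 0.0289) and *Prss12* (-2.56, SE 0.78, adjusted p = 0.0325) were lower in KO at day 3. The value of *Prss12* rested on 1 library: its WT samples had 0.70, 1.20 and 17.0 CPM and its KO samples 0.15, 1.08 and 0.62 CPM. Without WT day 3 replicate 3 its log2 fold change was -1.07 (adjusted p = 0.228), and it was also lost in 4 other fits that left out 1 sample. *Tcf24* had 3.87, 4.96 and 3.91 CPM in WT and 1.90, 2.27 and 2.33 CPM in KO, and its call was lost in 5 of 12 such fits. *Rps2*, whose start lies 1849 bases from *Snhg9* on the other strand, did not pass at either day, and *Rab42*, the nearest to *Snhg12*, was too low to be tested. *Snhg6* overlaps 127 exonic bases of *Mcmdc2* on the opposite strand, a gene of at most a few CPM in these samples.

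Other lists were read beside the 6 hosts. Of 9 tested non-coding snoRNA hosts outside the list, *Snhg15* was higher in KO at both days, at 0.75 (SE 0.11, adjusted p = 0.00185) and 0.95 (SE 0.11, adjusted p = 0.000374). *Snhg18* was lower at both, at -0.99 (SE 0.28, adjusted p = 0.033) and -0.97 (SE 0.25, adjusted p = 0.0158), from no more than a few CPM. Of the rest only *Epb41l4aos* passed, at day 3 (0.75, SE 0.11, adjusted p = 0.00098), a gene singled out after its values were seen. With the block within each day 2 of the 9 were higher and 3 lower at day 0, and 5 higher and 1 lower at day 3. Without the block *Snhg18* was not called at day 0 (adjusted p = 0.0513). The medians of the 9 were 0.12 and 0.37 on the log2 scale, below the 0.29 and 0.66 of the 6 hosts. Of the 9, 6 were above 0 at day 0 and 8 at day 3. The members and lists were chosen with earlier results of these data known, so the order of the medians is a description.

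The 34 protein-coding snoRNA hosts, most of which encode ribosomal proteins or translation factors, had medians of 0.021 at day 0 (-0.014 with upper quartile normalization) and 0.095 at day 3. At day 0, 1 was higher, the translation initiation helicase gene *Eif4a2* (0.40, SE 0.082, adjusted p = 0.00747), and 4 were lower, among them *Rpl23a* (-0.44, SE 0.092, adjusted p = 0.00888) and *Rpl23* (-0.37, SE 0.0695, adjusted p = 0.00516). At day 3, 7 were higher and 3 lower. With the block within each day, 5 were higher and 5 lower at day 0, and 13 higher and 4 lower at day 3. Without the block, 0 were higher and 3 lower at day 0, and 3 higher and 1 lower at day 3, and *Eif4a2* (adjusted p = 0.251) and *Rpl23a* (adjusted p = 0.0586) were not called at day 0.

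Of 16 genes for snoRNP proteins and their assembly factors, 3 were lower at day 0, including *Naf1* (-0.51, SE 0.12, adjusted p = 0.0157) and *Nhp2* (-0.45, SE 0.13, adjusted p = 0.0333), and 4 were higher at day 3. With the block within each day, 2 were higher and 4 lower at day 0, and 9 higher and 1 lower at day 3. At day 0 log2 fold changes ran from -0.44 to 0.40 in the protein-coding hosts and from -0.51 to 0.22 in the snoRNP genes. *Gas5* and *Snhg8* lay above both ranges, and the other 4 tested members lay within the first. At day 3 the ranges were -0.40 to 0.42 and -0.38 to 0.41, against 0.49 to 1.05 in the 6 members.

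Among 21 genes of the NMD pathway, 3 were higher and 4 lower at day 0, and 5 were higher and 5 lower at day 3. Besides *Upf3b*, those called at both days included *Upf2* (0.40, SE 0.096, adjusted p = 0.0161 at day 0) and *Smg5* (0.21, SE 0.063, adjusted p = 0.0402), both higher, and *Casc3* (-0.46, SE 0.077, adjusted p = 0.00312) and *Smg8* (-0.32, SE 0.082, adjusted p = 0.0213), both lower. UPF2 bridges UPF1 to UPF3 proteins, SMG5 helps to bring decay enzymes to UPF1, CASC3 belongs to the exon junction complex and SMG8 restrains the SMG1 kinase. At day 3 their log2 fold changes were 0.32, 0.33, -0.33 and -0.40 in the same order. Without the block *Smg5* was not called at day 0 (adjusted p = 0.0826). Over the 12 fits that left out 1 sample, the day 0 call was lost in 9 for *Smg5*, 4 each for *Upf2* and *Smg8* and 0 for *Casc3*. The day 3 call was lost in 4 such fits for *Upf2*, 1 for *Casc3* and 0 each for *Smg5* and *Smg8*.

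Of 6 mRNAs known to be sensitive to NMD, 1 was higher at day 0 and 2 at day 3. Their log2 fold changes ran from -0.49 to 0.41 at day 0, with 3 above 0, and from -0.40 to 0.98 at day 3, with 4 above 0. *Atf4*, which encodes a transcription factor of the stress response and has upstream reading frames, was higher at both days, at 0.41 (SE 0.096, adjusted p = 0.0149) and 0.31 (SE 0.096, adjusted p = 0.0358). Without the block *Atf4* was called at neither day (adjusted p = 0.077 and 0.148), and 0 of the 6 were called higher at day 0 and 1 at day 3. With the block within each day, 1 was higher and 2 lower at day 0, and 3 higher and 1 lower at day 3. The list median was 0.0029 at day 0 (-0.035 with upper quartile normalization) and 0.21 at day 3.

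**Figure D4:**
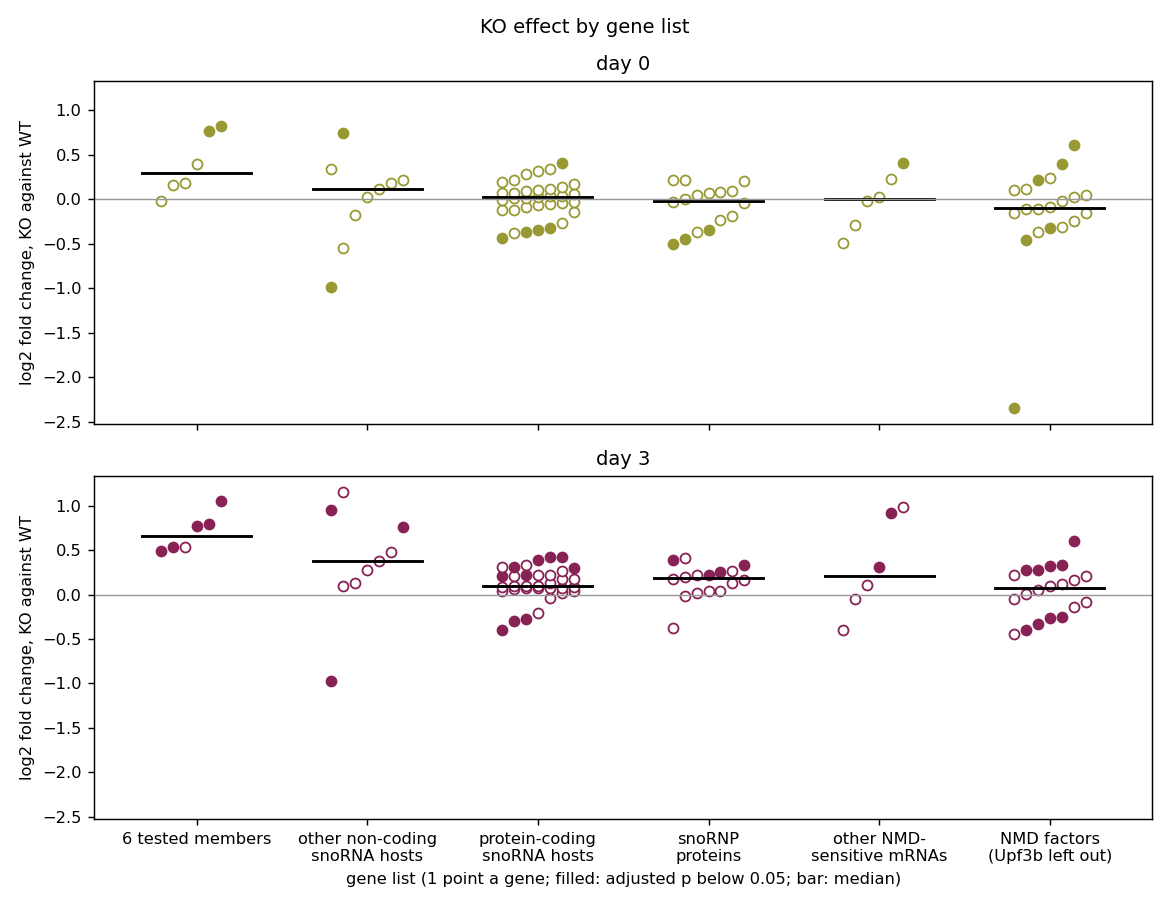
Log2 fold change of KO against WT at day 0 (top) and day 3 (bottom), 1 point a gene, for the 6 tested hosts and 5 other lists. Filled points passed an adjusted p-value of 0.05, black bars are list medians, and *Upf3b* is left out because its log2 fold change of -6.79 at day 0 and -11.16 at day 3 lies far below the axis. The 6 hosts have the highest median of the lists at both days, in lists chosen with earlier results of these data known.

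The tested genes whose log2 CPM followed the mean of the 6 hosts most closely over the 12 samples were *Cox7b*, *Chtop*, *Pfdn1*, *1110038B12Rik* and *Cox6c*, with Pearson's r between 0.944 and 0.959. The points share their libraries, and the values are a description. *1110038B12Rik* is a non-coding gene with 2 annotated snoRNA genes inside it, *Snord52* and *Gm25744*. It was at 0.085 (SE 0.13, adjusted p = 0.693) in KO against WT at day 0 and higher at day 3 (0.49, SE 0.13, adjusted p = 0.018; 0.0856 without the block).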

How the data were processed

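The authors selected polyadenylated RNA, made stranded Illumina libraries, used cutadapt 1.3 to trim single reads and STAR 2.4.2a to align them to GRCm38, and counted reads per Ensembl gene with HTSeq 0.6.1, as the submitters' processing notes and the study's methods give it. The strand setting of the counting is not given in the sources used here. The deposited values are whole-number read counts, not normalized. Rows that name no gene (multiple alignments, no feature, ambiguous) held between 46.3% and 51.0% of the alignments and were left out, and a gene with close copies elsewhere loses reads this way.

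Genes above 1 CPM in at least 1 sample (15673) entered the quasi-likelihood test of edgeR 4.0.16 (R 4.3.3), with TMM, 4 groups, the replicate number as a block and all 12 samples. Benjamini-Hochberg adjustment covered every tested gene, and a gene was called at an adjusted p-value below 0.05 with no fold minimum. SE is the log2 fold change divided by the square root of F. Alternatives were no block, a block within each day, limma-voom (limma 3.58.1), DESeq2 1.42.0, RLE and upper quartile normalization, no filter, a filter of 10 or more counts in each sample, only the 6 samples of a day, and each sample left out. Levels, transcripts, exons and reading frames were read from GENCODE M21 with Python 3.11.15, using the longest transcript of the best support level that does not retain an intron. The scripts were tested on simulated counts in which a replicate number had the same effect at both days. That test does not cover numbers that pair samples only within a day, as they did in these data.

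The members and gene lists were chosen with earlier results of these data known. The text names the members, their nearest protein-coding genes, NMD factors called at both days, the 2 largest increases and decreases called at day 0 in each other list, the 5 genes most correlated with the members and snoRNA genes with at least 10 counts in a sample. A result for 1 gene that this rule names is not reported here. Replicate numbers come from the labels. Over 11548 genes, same-numbered WT and KO samples of a day deviated together from their group means in every one of 6 pairs (r from 0.34 to 0.72), while the same number on different days gave r from -0.25 to 0.079, so the numbers pair samples within a day. No replicates matched within sampling noise.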

Additional observations from a re-analysis of the deposited data

Results flagged for a closer look

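The interaction term of edgeR called 11 of the genes described one by one for a KO effect that differed between day 0 and day 3. *Otx2* and *Pax6*, transcription factor genes of the neuroectoderm list, had differences of 3.79 (SE 0.32, adjusted p = 0.000272) and 3.23 (SE 0.57, adjusted p = 0.00539) on the log2 scale. For *Pax6*, KO was lower than WT at day 0 (-1.65) and higher at day 3 (1.58). *Nhp2*, which encodes a core protein of H/ACA snoRNPs, differed by 0.65 (SE 0.18, adjusted p = 0.0369), from -0.45 at day 0 to 0.20 at day 3. *Upf3b* differed by -4.37 (SE 0.70, adjusted p = 0.00349), but its KO samples held between 4 and 12 reads at day 0 and 0 or 1 at day 3, so the size of this difference rests on very few reads.

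The other 7 were outside the rule for named genes. In the mesendoderm markers *Eomes* (-1.99, SE 0.56, adjusted p = 0.0374), *Foxa2* (-4.43, SE 0.65, adjusted p = 0.0025) and *Mesp1* (-7.18, SE 2.06, adjusted p = 0.0417), the KO effect was more negative at day 3. At day 0 *Eomes* had 63.8, 31.2 and 59.1 CPM in WT and 66.1, 49.3 and 52.0 CPM in KO, so KO was not below WT there. *Mesp1* was near the floor at day 0, with 0, 0 and 0.90 CPM in WT and 0.056, 0.33 and 0 CPM in KO. The fibroblast marker *Dcn* differed by 2.21 (SE 0.62, adjusted p = 0.0392) and the non-coding snoRNA host *Epb41l4aos* by 0.58 (SE 0.16, adjusted p = 0.0334). *Magohb*, of the exon junction complex, differed by 1.91 (SE 0.25, adjusted p = 0.00148) and *Sept6*, a gene near *Upf3b*, by 0.71 (SE 0.18, adjusted p = 0.023), both with KO further below WT at day 0.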

How the results depend on the processing

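Without the replicate block, 1 host was called higher at day 0 and 3 at day 3, and between the days in KO 1 was called higher and 0 lower. With the replicate block within each day, 3 hosts were called for a larger KO effect at day 3, and 2633 genes were called higher and 2814 lower at day 0 and 3530 higher at day 3, against 1498, 1703 and 2235 in the fit with the block over both days. For the difference of the KO effect between days, that fit called 2535 genes higher and 2354 lower, against 1286 and 1150. DESeq2 called 1 host higher between the days in KO and 1 for a larger KO effect at day 3, and with no filter 1 was called higher and 1 lower between the days in KO. With only the 6 samples of day 0, 2659 genes were called higher and 2697 lower. The block within each day was not run for comparisons of days, since it takes the spread between replicate numbers out of their error, and only the 6 samples of a day cannot compare days.

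Over the fits that left out 1 sample, 3 to 6 hosts were called higher at day 3 (3 without KO day 3 replicate 1), 2 to 3 at day 0, 0 to 1 higher and 1 to 2 lower between the days in KO, and 0 to 1 for a larger KO effect at day 3 (1 without WT day 0 replicate 1). The counts over all genes ran from 788 to 1641 higher and 899 to 1839 lower at day 0, from 1439 to 2368 and 1351 to 2711 at day 3, and from 743 to 1281 and 613 to 1116 for the difference between days. None of the 5 calls of day 3 reversed. The uncalled values that changed sign were those of *Snhg3* (-0.0055 to 0.34) and *Snhg5* (-0.26 to 0.20) at day 0, *Snhg5* between the days in WT (-0.20 to 0.26), *Gas5* (-0.19 to 0.046), *Snhg3* (-0.30 to 0.050) and *Snhg6* (-0.17 to 0.081) between the days in KO, and *Gas5* (-0.086 to 0.16) and *Snhg6* (-0.016 to 0.28) for the difference between days. The causes of these shifts were not tested. Among the calls of other named genes and of markers, 7 of 23 at day 0 and 9 of 35 at day 3 were lost without the block, and 13 and 18 were lost in at least 1 fit that left out 1 sample.

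The block within each day changed the calls of *Snhg6* at day 0, of *Snhg5* at day 3 and of *Snhg3*, *Snhg5* and *Snhg12* for the difference between days, and no other call of a host. With 3 replicates a group and the block over both days, a log2 fold change of 0.53 in *Snhg5* was not called, and *Snhg9* was below what this depth resolves.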

Other observations

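The near absence of *Upf3b* reads in KO was not shared by the genes beside it on the X chromosome, which were looked at after the values of *Upf3b* were seen. *Rpl39*, which lies before it by coordinate, lay between 157 and 181 CPM in WT and between 148 and 176 CPM in KO at day 0. *Nkap*, on the other side, lay between 36.0 and 38.6 CPM in WT and between 30.3 and 35.8 CPM in KO. At day 3 *Rpl39* had a log2 fold change of 0.066 (SE 0.084, adjusted p = 0.592) and *Nkap* one of -0.067 (SE 0.086, adjusted p = 0.591). Of the protein-coding genes within 250 kb that were tested, *Sept6* was also lower in KO, at -1.07 (SE 0.13, adjusted p = 0.000587) at day 0 and -0.36 (SE 0.12, adjusted p = 0.0468; 0.0805 without the block) at day 3.

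*Magohb*, which encodes a component of the exon junction complex and was singled out after its values were seen, was lower in KO at day 0, at -2.35 (SE 0.18, adjusted p = 8.33e-05), and did not pass at day 3, at -0.44 (SE 0.17, adjusted p = 0.0696). With the block within each day it was also called at day 3 (adjusted p = 0.0291).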
